A study of Mus musculus with 6 samples.

Results

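Kitl and 3 noncoding genes beside it on mouse chromosome 10, Gm35533, Gm22918 and Gm25287, were followed in granulosa cells treated with GSK4112 and in control cells. They are 4 of the 27151 genes in the deposited expression table. They were chosen by position, next to Kitl, and with the outcome of this comparison already known, so their own levels and fold changes are given as a description without a test. RNA was sequenced from 3 GSK4112 and 3 control libraries of mouse granulosa cells. GSK4112 is a synthetic agonist of NR1D1 (REV-ERBα). This nuclear receptor binds heme and acts as a repressor within the circadian clock, and the study asked how higher NR1D1 activity bears on the endocrine function of these cells. The cells were taken from punctured follicles and cultured for 24 h in medium with serum. They were then held for 12 h without serum and kept for 24 h with GSK4112 or without it, with the medium changed every 12 h. The labels give no strain or age, and name no vehicle for the control. The design text speaks of treatment in vivo, while the protocol describes this culture, and nothing says whether the libraries came from separate animals or cultures. The p-values below therefore measure the spread between these libraries, which may be technical.

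Kitl encodes KIT ligand, also called stem cell factor, which binds the receptor tyrosine kinase KIT. In the ovary granulosa cells make the ligand, and oocytes and theca cells carry the receptor. The signal serves the survival of germ cells, the growth of oocytes and the recruitment of theca cells. The ligand is made as a membrane protein. Transcripts with a variable exon encode a form that proteases cut readily and shed, and transcripts without it encode a form that stays mainly on the cell surface. A lincRNA, such as Gm35533, is a long transcript between protein-coding genes with no known protein. A miRNA gene encodes a hairpin from which a short mature RNA is cut, and the mature RNA pairs with targets mainly through its seed, bases 2 to 8.

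The sequences of the short members show how alike they are, and that bears on every value given for them. Gm22918 and Gm25287 are annotated as miRNA genes of 110 bases and are identical over all 110. Their first 21 bases are the letters of mature miR-680. The hairpin of Mir680-2, on chromosome X, differs from them by T23C and G42T, with the base of Gm22918 first, counted from 1 at the 5′ end and written in DNA letters. In the lines below capitals mark the mature miR-680 letters, and in the mature sequence the seed. The first pair comes from GENCODE M21 (GRCm38) and the other pair from RefSeq (GRCm38.p6).
Gm22918, chr10:100139501-100139610, plus strand: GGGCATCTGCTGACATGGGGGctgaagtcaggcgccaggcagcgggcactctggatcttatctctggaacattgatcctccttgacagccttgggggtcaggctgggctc
Gm25287, chr10:100144254-100144363, plus strand: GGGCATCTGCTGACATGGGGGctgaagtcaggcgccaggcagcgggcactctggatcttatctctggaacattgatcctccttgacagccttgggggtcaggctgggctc
Mir680-2 hairpin, chrX:144297790-144297899, plus strand: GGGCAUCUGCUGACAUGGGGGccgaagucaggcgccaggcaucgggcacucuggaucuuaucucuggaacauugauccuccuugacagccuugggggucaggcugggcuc
mmu-miR-680: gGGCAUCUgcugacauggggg

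The first exon of Gm35533 is also a shared sequence. It has 223 bases, and capitals mark bases 5 to 105, each of which was matched in at least 10 other annotated genes. Of 21 other genes with a match, 2 were at least 90% identical over at least 200 bases: Gm14226 (96.0% over 223 bases) and Gm37350 (97.7% over 219 bases). The transcript of Gm14226 holds its copy at bases 37 to 259 and, on the opposite strand, a 97.3% match to the whole of Gm22918 at bases 3020 to 3129. The combination of a stretch like exon 1 of Gm35533 with a miR-680-like stretch therefore occurs in Gm14226 too.
Gm35533 exon 1, chr10:100143904-100144126, minus strand: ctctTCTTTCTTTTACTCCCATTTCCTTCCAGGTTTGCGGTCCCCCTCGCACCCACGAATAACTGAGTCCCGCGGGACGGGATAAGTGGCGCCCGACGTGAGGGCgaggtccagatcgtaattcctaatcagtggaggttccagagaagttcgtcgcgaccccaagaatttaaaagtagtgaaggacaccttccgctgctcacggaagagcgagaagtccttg

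For Kitl itself the variable exon is shown, because it separates the forms of the ligand. In GENCODE M21 this exon is number 6 of 10 in transcript Kitl-202 (5648 bases) and is absent from Kitl-201 (1260 bases). It has 84 bases, a multiple of 3. Capitals mark the exon, and lower case marks 15 bases of each neighbouring exon. The levels were deposited per gene, over 6 annotated Kitl transcripts, so they do not separate transcripts with the exon from those without it.
Kitl variable exon, chr10:100080857-100080940, plus strand: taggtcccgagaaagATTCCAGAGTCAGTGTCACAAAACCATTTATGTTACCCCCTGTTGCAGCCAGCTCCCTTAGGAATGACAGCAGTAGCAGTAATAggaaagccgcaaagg

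The 4 genes lie within a short stretch of chromosome 10 (GRCm38). Kitl, ENSMUSG00000019966, runs on the plus strand at chr10:100015630-100100416. Gm35533, ENSMUSG00000112831, has 4 exons with 675 bases in all and runs towards Kitl on the minus strand at chr10:100129868-100144126. The ends of the 2 genes are 29451 bases apart. Gm22918, ENSMUSG00000096586, lies in intron 1 of Gm35533 on the opposite strand, 645 bases from exon 2. Gm25287, ENSMUSG00000095539, lies 127 bases beyond the start of Gm35533, also on the opposite strand. The starts of Gm22918 and Gm25287 are 4753 bases apart.

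The libraries held 16559230 to 18158296 fragments, as read from the steps between low values. The levels are FPKM, fragments per kilobase of exon normalised to library size, as deposited. In each group replicate 1 stood apart from replicates 2 and 3. On the first principal component, with 49.4% of the variance, GSK4112 replicates 1, 2 and 3 lay at -13.4, 26.6 and 22.1 and control replicates 1, 2 and 3 at -38.6, 1.05 and 2.29. Of 12 granulosa markers, led by the inhibin subunits Inha and Inhba, 10 had a mean of at least 1 FPKM, with summed levels of 1740 to 2534 FPKM in GSK4112 libraries and 2457 to 2789 FPKM in control libraries. Hsd17b1 and Fst among them were lower with GSK4112, both at a Benjamini-Hochberg adjusted p of 0.0187 in limma on log2(FPKM + 1), where genes under 0.05 were called. Amh and Cyp19a1 were below 1 FPKM in each library. The 10 oocyte markers, led by Zp3 and Zp2, summed to 0.476 to 2.19 FPKM in GSK4112 libraries and 0.165 to 4.07 FPKM in control libraries, with Bmp15 at 0 in all GSK4112 libraries. The 10 theca and stroma markers summed to 72.2 to 134 FPKM in GSK4112 libraries and 52.0 to 245 FPKM in control libraries, most of it Acta2 with Ptch1 next, and replicate 1 was highest in both groups, with Cyp17a1 and Insl3 under 0.2 FPKM in each library. Markers of immune cells, led by Lyz2 and Cd68, summed to 16.1 to 37.0 FPKM in GSK4112 libraries and 6.80 to 39.5 FPKM in control libraries. Surface epithelium markers, led by Upk1b and Msln, summed to 2.65 to 8.92 FPKM in GSK4112 libraries and 2.92 to 8.84 FPKM in control libraries. Endothelial markers summed to at most 1.00 FPKM in any library. Of 6 markers each, 2 of mast cells and 2 of melanocytes were in the table, and no sum passed 0.551 FPKM. Their part in the differences below was not tested.

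Kitl was a well expressed gene that was higher in each GSK4112 library than in each control library. It had 62.4, 94.3 and 80.7 FPKM in GSK4112 replicates 1, 2 and 3, against 38.3, 26.7 and 38.6 FPKM in control replicates 1, 2 and 3. The groups did not overlap: the lowest GSK4112 library was 1.62 times the highest control library. The means were 79.1 ± 16.0 FPKM with GSK4112 and 34.5 ± 6.79 FPKM in control cells (SD, n = 3 each), a ratio of 2.29, or 2.68 without both replicate 1 libraries. On the log2(FPKM + 1) scale the difference was 1.17, with a pooled SD within groups of 0.30. Counts of 6234 to 9235 fragments per library in GSK4112 cells and 2723 to 4115 in control cells stood behind these levels, and counting error alone gives the ratio an exact 95% interval of 2.24 to 2.34, narrower than the spread between libraries. By mean level Kitl ranked 511th among 17136 protein-coding genes with GSK4112 and 1408th in control cells. In bulk samples more cells that make the transcript and more transcript per cell cannot be told apart.

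Gm35533 differed by more than Kitl. It had 111, 359 and 245 FPKM in GSK4112 replicates 1, 2 and 3, against 26.6, 18.3 and 30.8 FPKM in control replicates 1, 2 and 3. The groups did not overlap, and the lowest GSK4112 library was 3.60 times the highest control library. The means were 238 ± 124 FPKM with GSK4112 and 25.2 ± 6.37 FPKM in control cells, a ratio of 9.45, or 12.3 without both replicate 1 libraries. The fragments per library numbered 1264 to 4014 with GSK4112 and 213 to 346 in control cells. With GSK4112 Gm35533 was the third most abundant of 1675 lincRNA genes, after AU020206 and Malat1, and in control cells it ranked 8th. Per length it stood above Kitl in the 3 GSK4112 libraries and below it in the 3 control libraries.

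Gm22918, inside the first intron of Gm35533, differed by a factor close to that of Gm35533. It had 219, 842 and 766 FPKM in GSK4112 replicates 1, 2 and 3, against 78.6, 40.0 and 84.7 FPKM in control replicates 1, 2 and 3. The groups did not overlap, with the lowest GSK4112 library at 2.58 times the highest control library. The means were 609 ± 340 FPKM with GSK4112 and 67.8 ± 24.2 FPKM in control cells, a ratio of 8.98, or 12.9 without both replicate 1 libraries. In fragments these are 407, 1534 and 1464 with GSK4112 and 157, 76 and 155 in control cells. Among 363 miRNA genes in the table it ranked second with GSK4112, after Gm23935, and 4th in control cells. The libraries were made from fragmented mRNA with random primers, so the values count fragments of longer RNA and do not measure mature miR-680.

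Gm25287, the other copy, was almost undetected in control cells. It had 10.8, 86.2 and 72.2 FPKM in GSK4112 replicates 1, 2 and 3, against 1.50, 0.527 and 0 FPKM in control replicates 1, 2 and 3. These are 20, 157 and 138 fragments with GSK4112 and 3, 1 and 0 in control cells. The groups did not overlap, and 1 library, GSK4112 replicate 1, was far below the other GSK4112 libraries. The summed fragments per depth differed by a ratio of 80.6, with an exact 95% interval for counting error of 31.2 to 298. The means were 56.4 ± 40.1 FPKM with GSK4112 and 0.676 ± 0.762 FPKM in control cells, a log2 difference of 4.75, or 6.01 without both replicate 1 libraries. Since the sequences of Gm25287 and Gm22918 are identical, a fragment within the 110 bases can come from either copy, and how the authors assigned such fragments is not given in the sources used here. The strand setting is not given either. Gm22918 lies in an intron of Gm35533, so fragments of unspliced Gm35533 transcripts cannot be told apart from those of Gm22918. Gm25287 lies beyond the annotated start of Gm35533, where RNA of that strand from outside the annotation could be mixed in.

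The 4 members passed the filter of a mean of at least 1 FPKM, Gm25287 through the GSK4112 group alone. All 4 were higher in each GSK4112 library than in each control library, as were 15.7% of the 12181 genes tested. Since the members were picked with this contrast known, nothing is read from that count. The order of the GSK4112 libraries was the same for the 4 genes, with replicate 2 highest and replicate 1 lowest. In the control group replicate 2 was lowest for Kitl, Gm35533 and Gm22918. Replicate 2 thus had the widest gap between same-numbered libraries, at ratios of 3.54 for Kitl, 19.6 for Gm35533 and 21.04 for Gm22918. Replicate 1 had the narrowest, at 1.63, 4.16 and 2.78 for the same 3 genes, and in replicate 3 they were 2.09, 7.97 and 9.04.

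**Figure D1:**
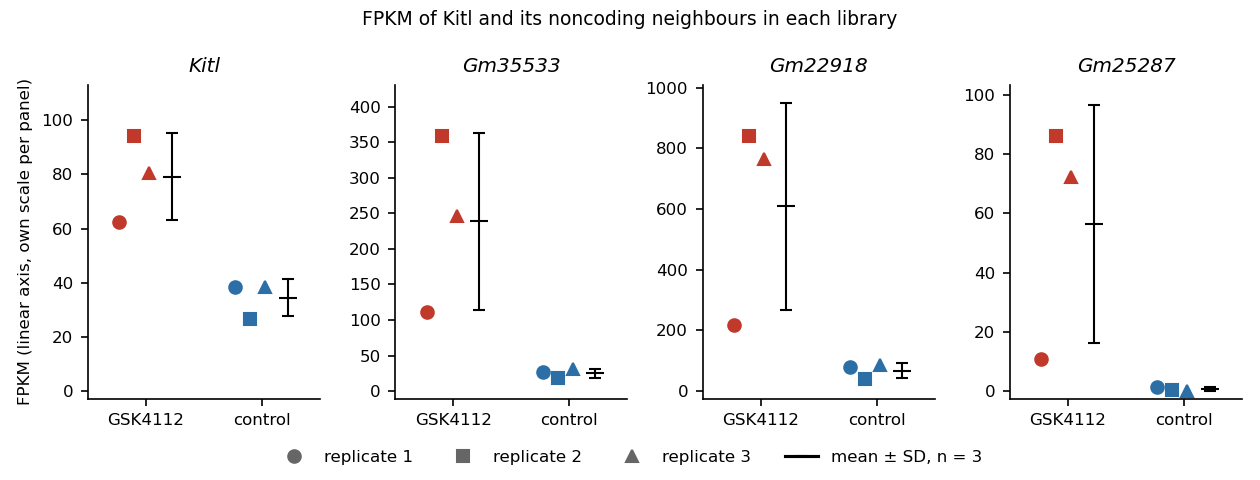
FPKM of Kitl, Gm35533, Gm22918 and Gm25287 in each library on linear axes with a scale of their own, GSK4112 left of control, with symbols for the replicate number and bars for mean ± SD (n = 3). In each panel the 3 GSK4112 libraries lie above the 3 control libraries, with GSK4112 replicate 1 lowest of its group.

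Ratios within a library are free of its depth and show which members differed by like factors. Gm35533 over Kitl was 1.78, 3.81 and 3.04 in GSK4112 replicates 1, 2 and 3, against 0.694, 0.685 and 0.799 in control replicates 1, 2 and 3. The groups did not overlap, and the means were 2.87 ± 1.03 with GSK4112 and 0.726 ± 0.0635 in control cells. Gm22918 over Gm35533 was 1.98, 2.35 and 3.12 with GSK4112, against 2.96, 2.19 and 2.75 in control cells. Here the groups overlapped, with means of 2.48 ± 0.584 and 2.63 ± 0.396, so this ratio did not separate them. Gm25287 over Gm22918 was 0.0491, 0.102 and 0.0943 with GSK4112, against 0.0191, 0.0132 and 0 in control cells, so the share of Gm25287 was higher in each GSK4112 library. The control values of that last ratio rest on 3, 1 and 0 fragments of Gm25287.

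**Figure D2:**
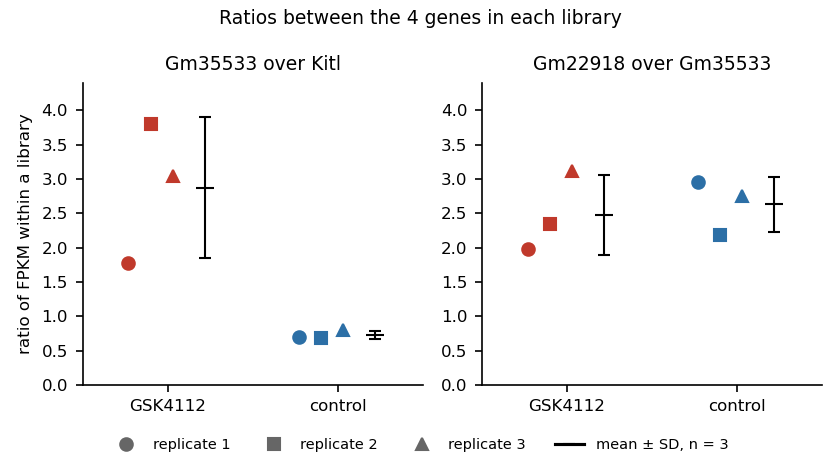
Ratios of FPKM between members in each library, GSK4112 left of control, on linear axes that start at 0, with symbols for the replicate number and bars for mean ± SD (n = 3). Gm35533 over Kitl lies at 1.78 to 3.81 with GSK4112 and at 0.685 to 0.799 in control cells, while Gm22918 over Gm35533 overlaps between the groups.

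Other copies of the miR-680 sequence were lower than Gm22918 in each library, but not all were lower than Gm25287. At 90% identity over at least 100 of the 110 bases, 95 miRNA genes on 19 chromosomes belong to this family in GENCODE M21, and 18 of them are in the table. Of the 16 other than Gm22918 and Gm25287, 5 had a mean of at least 1 FPKM and 0 passed the test in limma. At an unadjusted p under 0.05 there were 2, beside 2065 of all 12181 genes tested. Summed over the 16, the level was 15.1, 58.2 and 40.8 FPKM in GSK4112 replicates 1, 2 and 3, against 7.51, 17.4 and 31.7 FPKM in control replicates 1, 2 and 3. These sums overlap between the groups. Gm23251, the highest of the 16, had 9.14, 24.2 and 24.1 FPKM with GSK4112, against 5.51, 11.6 and 20.8 FPKM in control cells (adjusted p = 0.591, limma). Of the 16, 12 had a higher mean with GSK4112 and 4 a lower one. Gm23689, Gm25086 and Gm24755, the last below the filter, were higher in each GSK4112 library than in each control library. The same held for 15.7% of all genes tested. For Gm23689 and Gm24755 the order of the groups rests on scaling. The lowest GSK4112 and the highest control library held 2 fragments each for Gm23689 and 1 fragment each for Gm24755. Gm25086 had 1.61, 8.23 and 1.57 FPKM with GSK4112, against 0, 0.527 and 0.546 FPKM in control cells, with an adjusted p of 0.202 in limma and 0.0450 with the replicate number as a block. Mir680-2 itself reached at most 0.538 FPKM. Gm22918 held 85.4 to 89.5% of the family's summed FPKM in GSK4112 libraries and 69.1 to 89.7% in control libraries. Copies this alike can share fragments, so the split between them is uncertain.

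**Figure D3:**
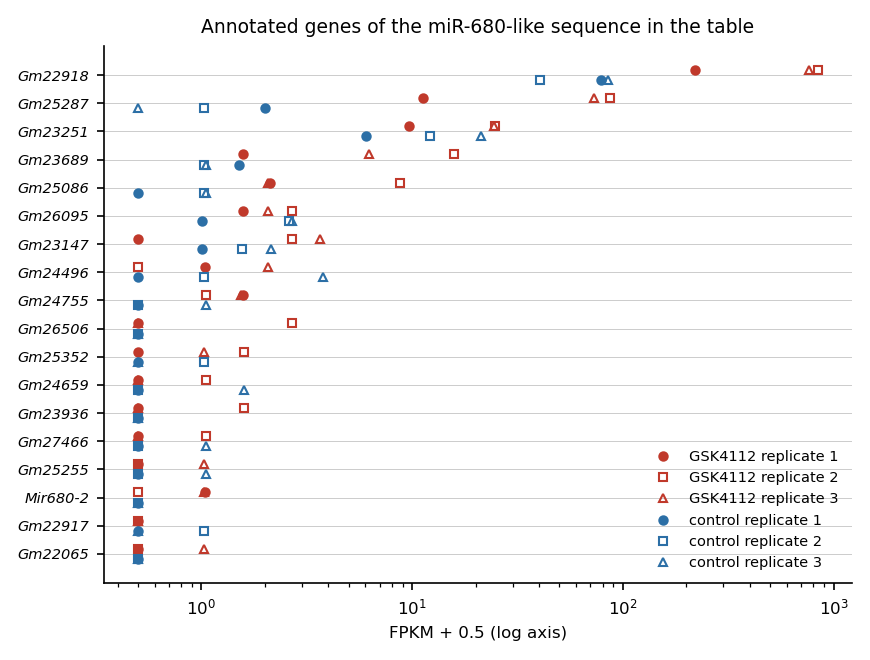
Levels of the 18 miR-680 family genes in the table as FPKM + 0.5 on a log axis, a line of the plot for each gene, with GSK4112 libraries (red) above control libraries (blue) and symbols for the replicate number. Gm22918 lies highest in each library, and the genes other than Gm22918 and Gm25287 together reach 58.2 FPKM at most.

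The 2 genes at least 90% identical to the first exon of Gm35533 over at least 200 bases were low as well. Genes with shorter or weaker matches are not described here. Gm14226 had 0.0730, 1.58 and 1.28 FPKM in GSK4112 replicates 1, 2 and 3, against 0.0679, 0.518 and 0.630 FPKM in control replicates 1, 2 and 3. Gm37350 had 1.32, 2.12 and 0.735 FPKM with GSK4112, against 0.704, 0.370 and 0.192 FPKM in control cells. The groups overlapped for Gm14226. For Gm37350 the lowest GSK4112 and the highest control library held 4 fragments each, so their order rests on scaling. Gm35533 stood far above both in each library.

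The other genes around Kitl that could be tested had log2 differences between -0.66 and 0.08. Of 53 other annotated genes wholly within 1 Mb, 18 are in the table and 6 passed the filter. The 6 lie 343485 bases (Tmtc3) to 902382 bases (Galnt4) from the Kitl gene, so no nearer neighbour was tested. None of the 6 passed the test (0 in limma at an adjusted p under 0.05), where 1.03% of all genes tested did. At an unadjusted p under 0.05 there were 0, beside 2065 of all 12181 genes tested. Poc1b, which encodes a centriole protein, averaged 2.82 FPKM with GSK4112 and 2.63 FPKM in control cells, a log2 difference of 0.08 with a standard error of 0.0984. Galnt4 averaged 3.48 and 3.51 FPKM, Tmtc3 8.29 and 9.44 FPKM, Cep290 2.38 and 2.33 FPKM and 4930430F08Rik 1.13 and 1.02 FPKM, each with GSK4112 given before control. Dusp6, a phosphatase that inactivates ERK and so lies downstream of receptors such as KIT, had 32.6, 7.91 and 7.66 FPKM with GSK4112, against 64.1, 11.9 and 11.1 FPKM in control cells. Replicate 1 was highest in both groups, and each GSK4112 library lay below the control library of the same number. The log2 difference of Dusp6 was -0.66 (adjusted p = 0.715, limma), with an adjusted p of 0.0271 with the replicate block, and it turned to 0.13 without control replicate 1. The 12 neighbours below the filter had means of at most 0.422 FPKM. The nearest gene in the table, Gm17870, averaged 0.0168 FPKM with GSK4112 and 0.0983 FPKM in control cells.

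**Figure D4:**
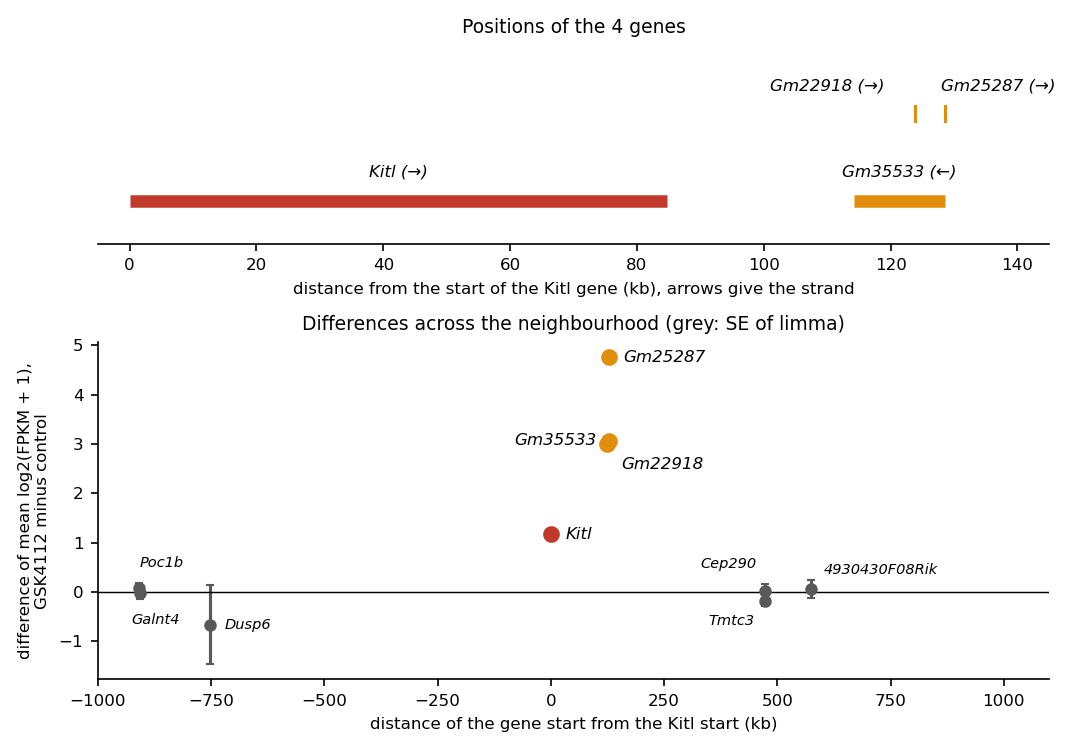
Positions of the 4 genes by distance from the start of Kitl in kb (upper panel) and differences of mean log2(FPKM + 1), GSK4112 minus control, across the neighbourhood, with standard errors of limma for the neighbours (lower panel). The members lie between 1.17 and 4.75, and the 6 neighbours that passed the filter lie between -0.66 and 0.08.

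The receptor of the ligand was detected at a low level per length. Kit had 0.604, 0.840 and 0.762 FPKM in GSK4112 replicates 1, 2 and 3, against 0.402, 0.455 and 0.533 FPKM in control replicates 1, 2 and 3, on 91 to 124 fragments per library with GSK4112 and 65 to 79 in control cells. The groups did not overlap, but Kit was below the filter and was not tested. Oocyte markers, listed above, were also low in these cultures. Of 44 genes of KIT signalling 38 were tested, 1 rose and 0 fell, where 0.41% of all genes tested rose and 0.624% fell. The median log2 difference was 0.08 beside 0.05 over all genes tested. The gene that rose was Stat3, a transcription factor switched on by cytokine and growth factor receptors, with 19.7 ± 0.994 FPKM with GSK4112 and 13.2 ± 0.148 FPKM in control cells (log2 difference 0.55, adjusted p = 0.0368, limma). Leaving out 1 library raised that adjusted p to 0.0515 without control replicate 1, 0.120 without control replicate 2, 0.136 without control replicate 3, 0.207 without GSK4112 replicate 2 and 0.204 without GSK4112 replicate 3 in limma. The most abundant uncalled members were Pik3r1, Mapk3, Akt1 and Stat5a. Mapk3, an ERK kinase, averaged 98.0 and 95.4 FPKM with GSK4112 and in control cells, Akt1 77.7 and 74.8 FPKM, and Stat5a, a target of KIT in other cells, 70.8 and 54.2 FPKM. Pik3r1, a regulatory subunit of PI 3-kinase, averaged 78.6 ± 31.3 FPKM with GSK4112 and 129 ± 49.9 FPKM in control cells, with an adjusted p of 0.444 in limma and 0.0103 with the block. The block called these 2 genes of the list, and 6.89% of all genes tested.

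Of the proteases that shed the ligand and their inhibitors, 13 of 18 listed genes were tested and 0 passed in limma. At an unadjusted p under 0.05 there were 2, beside 2065 of all 12181 genes tested. The median log2 difference was 0.11. Adam10 averaged 49.8 FPKM with GSK4112 and 41.6 FPKM in control cells, and Adam9 34.8 and 32.9 FPKM. Timp1 averaged 72.1 and 84.5 FPKM and Timp2 61.2 and 57.3 FPKM, both inhibitors of metalloproteases. With the replicate block 1 of the 13 was called, beside 6.89% of all genes tested. It was Timp3, an inhibitor of ADAM17, at 18.4 FPKM with GSK4112 and 26.2 FPKM in control cells (adjusted p = 0.0496, limma). Timp3, like the further genes below that only the block called, was named after its values were seen.

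Among the ligands and receptors of the class to which KIT belongs, 6 of 12 were tested, 0 rose and 2 fell (0.41% and 0.624% of all genes tested), with a median log2 difference of -0.42. Il34, a ligand of the CSF1 receptor, averaged 0.815 ± 0.122 FPKM with GSK4112 and 3.43 ± 0.50 FPKM in control cells (log2 difference -1.28, adjusted p = 0.0202, limma). Pdgfb, a ligand of the PDGF receptors, averaged 10.3 ± 2.995 FPKM with GSK4112 and 29.8 ± 5.99 FPKM in control cells (log2 difference -1.46, adjusted p = 0.0421, limma). Kitl thus lay on the opposite side from both called relatives. With the block 5 of the 6 were called, beside 6.89% of all genes tested, Csf1 and Pdgfc higher and Il34, Pdgfb and Pdgfd lower. Csf1 averaged 11.6 FPKM with GSK4112 and 6.99 FPKM in control cells, Pdgfc 13.4 and 8.60 FPKM, Pdgfd 42.6 and 61.3 FPKM, and Pdgfa, not called by either fit, 6.22 and 8.12 FPKM. No gene of this class passed without control replicate 2 or 3, or without GSK4112 replicate 2 or 3, when the adjusted p of Il34 was 0.0928, 0.115, 0.101 and 0.137 and that of Pdgfb 0.120, 0.136, 0.207 and 0.214 (limma). Pdgfb also missed the threshold without control replicate 1, at 0.0549.

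Of 32 genes of the exchange between granulosa cells and oocyte 23 were tested, 0 rose and 1 fell (0.41% and 0.624% of all genes tested), with a median log2 difference of -0.13. The gene that fell was Fst, follistatin, which binds and blocks activin, with 24.0 ± 2.38 FPKM with GSK4112 and 73.6 ± 15.4 FPKM in control cells (log2 difference -1.56, adjusted p = 0.0187, limma). In limma the call was lost, with the adjusted p in brackets, without control replicate 2 (0.0815), control replicate 3 (0.0628), GSK4112 replicate 2 (0.108) or GSK4112 replicate 3 (0.112). The abundant members Inha, the inhibin alpha subunit, and Gja1, the gap junction protein connexin 43, averaged 1892 and 215 FPKM with GSK4112 and 2036 and 233 FPKM in control cells. Fscn1 averaged 142 FPKM with GSK4112 and 216 FPKM in control cells, and Cdh2, N-cadherin, 98.6 and 80.2 FPKM. With the block 6 members were called, all lower: Fst, Igf1, Jag1, Bmp6, Bmpr1b and Fscn1. The block called 6.89% of all genes tested, 374 higher and 465 lower. Kitl, which acts in this exchange too, was higher with GSK4112.

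Of 15 receptors and transcription factors listed as acting on Kitl, 13 were tested and 0 passed in limma. At an unadjusted p under 0.05 there were 5, beside 2065 of all 12181 genes tested. The median log2 difference was -0.04. Nr1d1, which encodes the target of GSK4112, averaged 11.8 ± 0.279 FPKM with GSK4112 and 9.06 ± 0.362 FPKM in control cells (adjusted p = 0.0911, limma). Foxl2, a regulator of granulosa identity, averaged 41.9 FPKM with GSK4112 and 56.2 FPKM in control cells, and Esr2, estrogen receptor beta, 20.99 and 30.1 FPKM. Hif1a averaged 51.6 and 42.1 FPKM and Trp53 32.4 and 35.5 FPKM. With the block 2 of the 13 were called, beside 6.89% of all genes tested. Among them Epas1, a hypoxia-inducible transcription factor, was lower, at 2.14 FPKM with GSK4112 and 4.04 FPKM in control cells (adjusted p = 0.0484, limma).

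Some genes elsewhere in the genome had almost the same profile over the 6 libraries as Kitl. Likeness was measured as the root mean square difference between profiles of log2(FPKM + 1), each centred on its own mean. Genes without a symbol, or with a predicted-gene name (Gm plus digits, or ending in Rik), were left out of the ranking. It covered 7515 other genes with a mean of at least 5 FPKM. The closest was Mblac2 on chromosome 13, at 0.103. It had 23.6, 36.1 and 29.2 FPKM in GSK4112 replicates 1, 2 and 3, against 14.9, 11.3 and 16.8 FPKM in control replicates 1, 2 and 3, with the same order of libraries as Kitl. Flcn followed at 0.213, Pik3r3 at 0.221, Slc5a3 at 0.228, Ifnar1 at 0.229 and Ctsl at 0.240. Flcn, which encodes folliculin, averaged 17.2 ± 1.14 FPKM with GSK4112 and 9.09 ± 1.69 FPKM in control cells and was the only one of the 6 called (adjusted p = 0.0477, limma). Its adjusted p was 0.115 without control replicate 2, 0.165 without control replicate 3, and 0.0622, 0.233 and 0.242 without GSK4112 replicates 1, 2 and 3 (limma). It was also 0.0513 with a pseudocount of 0.1, 0.125 without a filter, 0.0638 with TPM scaling and 0.0571 without a variance trend (limma). Ctsl, the lysosomal protease cathepsin L, averaged 391.5 ± 111 FPKM with GSK4112 and 148 ± 5.00 FPKM in control cells (adjusted p = 0.0507, limma). With the replicate block each of the 6 passed in limma, with adjusted p between 0.0107 and 0.0348, beside 6.89% of all genes tested. Gm35533, Gm22918 and Gm25287 were less like Kitl by this measure, at 1.00, 1.04 and 1.99. The measure takes in the size of the difference between groups, which was larger for them than for Kitl. It therefore does not show whether they varied less in step with Kitl. The 6 closest genes were chosen for their likeness to Kitl, so their differences are no independent support.

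**Figure D5:**
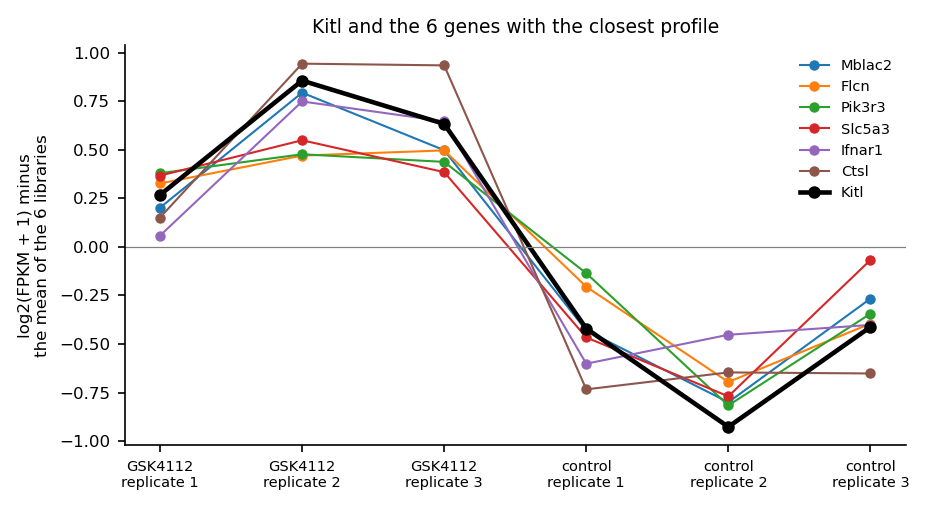
Profiles of log2(FPKM + 1), centred on each gene's mean, over the 6 libraries, GSK4112 left of control, for Kitl (black) and the 6 closest genes. Predicted genes were left out of the ranking. The profile of Mblac2 lies closest to that of Kitl, at a root mean square difference of 0.103.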

How the data were processed

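RNA was sequenced from 3 GSK4112 and 3 control samples, grouped and numbered by their titles. Per the file headers the authors deposited FPKM for 27151 Ensembl gene IDs in 6 columns, and 0 columns were left unused. The submitters' processing notes name build GRCm38. Aligner, counting program, annotation release and strand setting: not given in the sources used here. Symbols came from GENCODE M21, which held 27098 of the IDs.

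Whole fragments were recovered from the steps of the deposited FPKM: among values below 500 fragments, 92.8 to 93.1% came within 0.01 of a whole number. At that depth a gene with 1 kb of exons gained 0.0551 to 0.0604 FPKM per fragment. Intervals cover counting error only.

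Genes with a mean of at least 1 FPKM were kept (12181) and tested by limma (version 3.58.1, under R 4.3.3) after transformation to log2(FPKM + 1), with a variance trend, 2-sided, at a Benjamini-Hochberg adjusted p under 0.05. "Rose" and "fell" refer to this test. An exact permutation test of 3 against 3 values cannot go below p = 0.1. The fit was also run on simulated data in which libraries varied independently. That run does not cover the way replicate 1 stood apart here. Matches between sequences were found with BLAST 2.17.0.

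Of all genes tested 126 were called, 50 higher (0.41%) and 76 lower (0.624%) with GSK4112. With median-of-ratios scaling 39 were higher and 105 lower.

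Replicate numbers occur in both groups. After subtraction of group means, samples of the same number correlated at 0.665, 0.326 and 0.213 over genes, each above the limit of 0.1. No label gives a pairing, and for replicates 2 and 3 these correlations do not settle it. GSK4112 replicate 2 correlated better with control replicate 3 (0.530), and GSK4112 replicate 3 with control replicate 2 (0.357). The fit that adds replicate number as a block called 839 genes (6.89%), the 126 among them, and is given where it changed a call.

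The members and lists were chosen with earlier results of these data known. Named are the members, neighbours within 1 Mb that passed the filter, called members of each list with its 4 most abundant others, Kit, the 6 genes most like Kitl, and the leading and defining markers. Genes without a symbol or with a predicted-gene name were left out of the search for likeness to Kitl. Alternatives were other pseudocounts, filters and scalings, no variance trend, the block, and samples left out. The labels' unit of dose is no concentration, so no dose is reported. A gene of the list of regulators is not reported here.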

Additional observations from a re-analysis of the deposited data

How the results depend on the processing

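The 4 members were higher with GSK4112 under each alternative run. Over 12 alternatives their log2 differences ranged from 1.00 to 1.42 for Kitl, 2.69 to 3.59 for Gm35533, 2.65 to 3.76 for Gm22918 and 4.23 to 6.45 for Gm25287. Leaving out 1 sample gave 1.00 to 1.33, 2.69 to 3.54, 2.65 to 3.62 and 4.23 to 5.68 in the same order. Gm25287 moved most, to 6.45 with a pseudocount of 0.1 and to 6.01 without both replicate 1 samples. Its control values rest on 0 to 3 fragments, which limits its ratio.

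Counts of calls depended far more on the processing, and the cause was not tested. Of all genes, 26 were called without a filter, 70 with TPM scaling, 839 with the replicate block and 837 without both replicate 1 samples. Leaving out 1 sample gave 0 to 149, with 8 without control replicate 2 and 0 without control replicate 3, GSK4112 replicate 2 or GSK4112 replicate 3. In KIT signalling, 0 were called without a filter or with TPM scaling, 2 with the block, 4 without both replicate 1 samples and 0 to 1 with 1 sample left out. In shedding, 1 was called with the block and 1 without both replicate 1 samples. In the receptor class of KIT, 0 were called without a filter, 1 at a mean of at least 5 FPKM, 1 with TPM scaling, 5 with the block, 5 without both replicate 1 samples and 0 to 3 with 1 sample left out. In the exchange with the oocyte the counts were 0 without a filter, 2 at a mean of at least 5 FPKM, 2 with median-of-ratios scaling, 6 with the block, 6 without both replicate 1 samples and 0 to 2 with 1 sample left out. Among the listed regulators the block called 2. Among the neighbours 1 was called with the block and 1 without both replicate 1 samples. The block changed no call of the named genes other than those given with it above.

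Some small log2 differences that were not called changed sign. Median-of-ratios scaling gave -0.0219 for Mapk3 and -0.0253 for Cep290. Without both replicate 1 samples Inha was at 0.0092, Trp53 at 0.0046 and Cep290 at -0.0698. With 1 sample left out the ranges were -0.0683 to 0.141 for Mapk3, -0.0239 to 0.181 for Akt1, -0.618 to 0.0514 for Timp1, -0.0198 to 0.225 for Timp2, -0.114 to 0.315 for Adam9, -0.273 to 0.0826 for Inha, -0.087 to 0.0752 for Galnt4, -1.31 to 0.13 for Dusp6 and -0.0879 to 0.119 for Cep290.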
